A study of Mus musculus and Sus scrofa with 30 samples.

Results

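The elastic fibre and crosslinking genes were described in adipogenic cultures of mouse 3T3-L1 cells and porcine dedifferentiated fat (DFAT) cells. The 10 members were Eln, Fbn1, Fbn2, Fbln2, Fbln5, Efemp2, Mfap4, Mfap5, Lox and Loxl1. They were selected by gene symbol, ignoring case, with their fold changes in every comparison below already known, so the counts of changed members describe the set and do not support it. Each symbol had 1 row in each table, 10 of 24843 genes in 3T3-L1 and 10 of 34307 in DFAT. In each system 9 of the 10 reached a mean of at least 10 normalized counts over the 15 libraries and were tested. The exception in both was fibrillin 2 (Fbn2, FBN2). Mouse symbols are written in lower case after the first letter and pig symbols in capitals.

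Elastic fibres give tissues recoil. Their core is elastin, secreted as tropoelastin and laid down on microfibrils built from fibrillins and microfibril-associated proteins. Fibulins link tropoelastin to the microfibrils and bring in lysyl oxidases, the copper enzymes that crosslink elastin and also collagen. In fat, fibroblast-like progenitors make this matrix and remodel it as they store lipid.

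Bulk RNA-seq was taken on day 5 of adipogenic differentiation from 5 groups of 3 libraries per cell system, 30 libraries in all. Every group received the induction mix of its system. For 3T3-L1, a line of mouse embryonic fibroblasts that can become fat cells, this held dexamethasone at 75 nM, IBMX at 37.5 µM and insulin at 0.75 µg/mL, with 10% serum. For DFAT, cells from pig subcutaneous fat that have returned to a fibroblast-like state, it held 0.5 µM dexamethasone and 12.5 µM IBMX in 2% serum with further supplements. The treatments given during differentiation were DMSO (vehicle), dicoumarol, magnolol, dicoumarol together with magnolol (the combination) and rosiglitazone. Dicoumarol is a coumarin anticoagulant, magnolol a lignan of magnolia bark, and rosiglitazone an agonist of PPARγ, the receptor that drives fat cell formation. The labels give no dose for any treatment. The labels do not say whether replicates were separate cultures or how many animals gave the DFAT cells, so p-values measure the spread between these libraries, which may be technical.

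Estimated reads per library ran from 22.8 M to 30.7 M in 3T3-L1 and from 44.8 M to 70.5 M in DFAT. Of 8 fibroblast markers, 8 in 3T3-L1 and 6 in DFAT reached the minimum mean, and of 9 adipocyte markers 8 and 9. Summed adipocyte markers ran from 44205 to 62114 normalized counts with vehicle and from 321411 to 565845 with rosiglitazone in 3T3-L1, and from 18496 to 21430 and from 76458 to 83530 in DFAT. Summed fibroblast markers ran from 334220 to 373045 with vehicle and from 209493 to 255821 with rosiglitazone in 3T3-L1. Of the other 3T3-L1 treatments, the combination had 253994 to 293039 for fibroblast and 114981 to 180987 for adipocyte markers. Smooth muscle markers, of which 4 of 7 reached the minimum, summed in 3T3-L1 to 2961 to 5667 with vehicle, 1719 to 2422 with the combination and 1421 to 2627 with rosiglitazone. Acta2, with a mean of 2746 over the 15 libraries, made up most of that sum, and Des came next at 81.5. In DFAT the summed fibroblast markers ran from 1879698 to 2007873 with vehicle. There dicoumarol gave 2495327 to 2594854, magnolol 2813917 to 3167136, the combination 2769891 to 3224221 and rosiglitazone 1564214 to 1654178. Of 5 endothelial markers, 0 in 3T3-L1 and 1 in DFAT reached the minimum. In bulk RNA, fewer cells of a type and less RNA per cell cannot be told apart. The part of these marker shifts in the members' changes was not tested.

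The stretches upstream of 2 of the members that were lower together with rosiglitazone in 3T3-L1, Fbn1 and Fbln2, are shown as an example of the sequence their transcription starts from. RefSeq (GRCm38.p6) held promoter windows for 4 of the 10 members, Fbn1, Fbln2, Fbln5 and Efemp2, and the pair shown has 1 listed start each. Window positions follow that build and cannot be set against the gene coordinates given below, whose build is not settled. The 250 bases before the start are printed 5′ to 3′ on the gene's strand, with GGGCGG or its complement CCGCCC, the core of the GC box, in capitals.
Fbn1 (chr2:125506439-125506688, minus strand): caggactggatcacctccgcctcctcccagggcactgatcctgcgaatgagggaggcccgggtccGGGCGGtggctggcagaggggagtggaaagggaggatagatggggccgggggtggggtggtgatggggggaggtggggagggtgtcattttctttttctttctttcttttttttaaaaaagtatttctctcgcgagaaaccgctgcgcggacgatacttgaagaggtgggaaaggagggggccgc
Fbln2 (chr6:91212514-91212763, plus strand): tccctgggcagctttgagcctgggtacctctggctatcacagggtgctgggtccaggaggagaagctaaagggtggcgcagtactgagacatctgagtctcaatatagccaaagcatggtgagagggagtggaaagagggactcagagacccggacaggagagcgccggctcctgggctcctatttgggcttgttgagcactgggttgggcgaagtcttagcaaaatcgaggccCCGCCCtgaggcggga
The Fbn1 window held the motif once, starting 185 bases before the start, and the Fbln2 window once, 16 bases before it. On either strand, 33.0% of 32536 distinct windows of this length held GGGCGG. Their GC content was 59.2% and 58.8%, against a median of 52.4% over all windows. Neither window held TATAAA (12.3% of all windows), TGANTCA (6.73%) or TTGCNNAA (9.57%). CANNTG, present in 66.2% of all windows, was in the Fbln2 window 161 bases before the start and not in the Fbn1 window. These matches are descriptions of the letters, not of binding.

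Fold changes are differences of mean log2(normalized count + 1), tested with limma over all genes of a table, and a gene is called at a Benjamini-Hochberg adjusted p under 0.05. The scale understates the change of low genes. In 3T3-L1, every tested member but Loxl1 had a fold change below 0 with each treatment, and only with rosiglitazone were most of them called. Dicoumarol gave 0 called members of 9 (limma; 0 of 9 at an unadjusted p under 0.05; median log2 fold change −0.18), where 0% of all genes were called. Magnolol also gave 0 (limma; 2 of 9 at an unadjusted p under 0.05; median −0.31), against 1.23% of all genes. The combination gave 1 lower member, Mfap5 (median −0.43), against 5.22% of all genes called (1.36% lower). Rosiglitazone gave 6 lower members, Lox, Mfap5, Fbn1, Fbln2, Fbln5 and Efemp2, and 1 higher, Loxl1 (median −1.07), against 40.1% of all genes. The comparisons with vehicle share the vehicle libraries.

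In 3T3-L1 the replicate numbers pair libraries across groups, and a fit with the number as a block called more members. With the replicate block, dicoumarol gave 0 members (0.502% of all genes called with the block) and magnolol 1, Eln (4.96% of all genes). The combination gave 6, Eln, Fbln2, Fbln5, Efemp2, Mfap5 and Lox (13.5% of all genes). Rosiglitazone gave 8, with Eln added (49.8% of all genes). All of these but Loxl1 were lower than in vehicle.

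In DFAT the members called with dicoumarol, magnolol or the combination rose, and those called with rosiglitazone fell. Dicoumarol raised 2 of 9, ELN and FBLN2 (median log2 fold change 0.25), against 1.94% of all genes called (0.911% higher). Magnolol raised 1, ELN (median 0.19), against 4.22% of all genes (2.96% higher). The combination raised 2, ELN and FBLN5 (median 0.31), against 10.2% of all genes (6.11% higher). Rosiglitazone lowered 2, LOX and LOXL1 (median −0.18), against 10.8% of all genes (5.02% lower). A fit with the replicate block called more members for each treatment, as given at the end. The median fold change over all genes was −0.01 for the combination in both systems and nearer 0 for the other treatments.

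**Figure D1:**
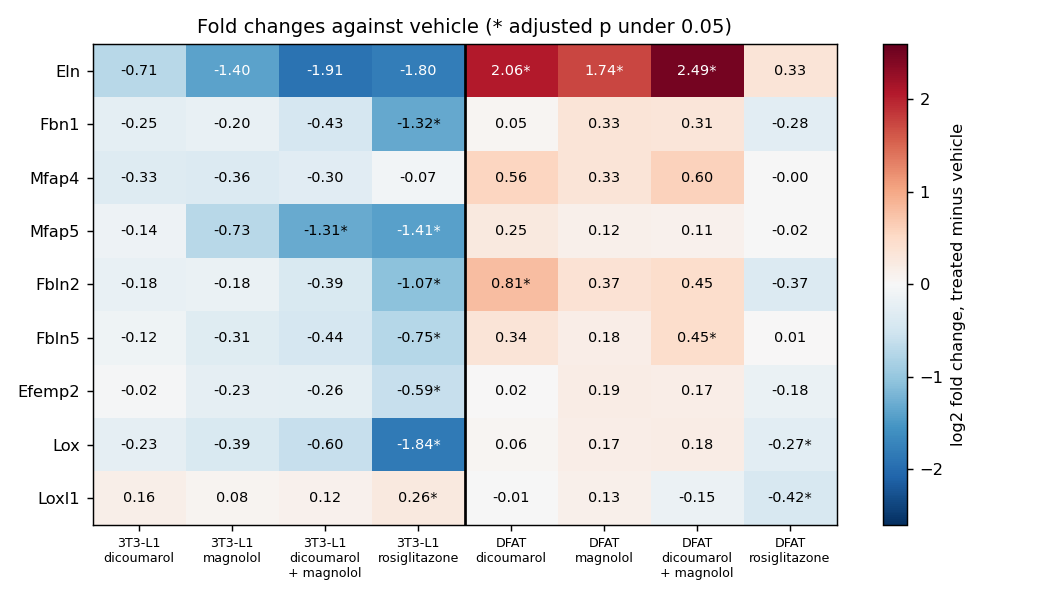
Log2 fold change against vehicle of the 9 tested members (rows) for each treatment in 3T3-L1 and DFAT (columns), coloured by value, with called values starred. The largest called values are those of ELN in DFAT, at 2.06, 1.74 and 2.49 with dicoumarol, magnolol and the combination, and of Lox in 3T3-L1 with rosiglitazone, at −1.84.

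Elastin was the member with the largest change in DFAT. ELN (ENSSSCG00000025858, chromosome 3, 11214205 to 11244897, plus strand) had 44.8, 83.1 and 50.9 normalized counts in the vehicle libraries. With dicoumarol it had 207, 254 and 272, and with magnolol 167, 215 and 203. All 6 of these lay above every vehicle library. With the combination the libraries had 269, 359 and 364, and with rosiglitazone 93.6, 71.9 and 57.0. The lowest combination library lay just under the highest dicoumarol library, and the rosiglitazone libraries overlapped those of vehicle. The fold change was 4.17 with dicoumarol (log2 2.06, SE 0.22, limma adjusted p = 2.71e-05), 3.33 with magnolol (1.74, adjusted p = 8e-05) and, for the combination, 5.62 (2.49, adjusted p = 5.69e-07). With rosiglitazone it was not called (log2 0.33, limma adjusted p = 0.428). Between treatments, ELN was higher with the combination than with magnolol in 3 of 3 libraries, but the difference of 0.76 was not called (limma adjusted p = 0.200), nor was that of 0.43 from dicoumarol (0.435). Summed fibroblast markers, given above, were likewise higher with these 3 treatments than with vehicle, and lower with rosiglitazone. Such sums mostly follow their largest genes, here collagens. COL1A1 had a mean of 1440857 normalized counts over the 15 DFAT libraries and COL3A1 622651, against 277794 for VIM. PDGFRA and PDGFRB had 41967 and 41907, and DPT 173. Summed smooth muscle markers, which include the 7 genes Myh11, Acta2, Cnn1, Des, Rgs5, Tagln and Cspg4, ran from 107176 to 127992 with vehicle. For dicoumarol the range was 125584 to 142313, for magnolol 162293 to 173306, for the combination 181612 to 199910 and for rosiglitazone 139419 to 210250. Summed adipocyte markers were also above vehicle (18496 to 21430) with dicoumarol (23459 to 25098), magnolol (36187 to 44615) and the combination (56945 to 64249). They were highest with rosiglitazone (76458 to 83530). The part of these marker shifts in the ELN change was not tested.

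Elastin in 3T3-L1 was low and uneven. Eln (ENSMUSG00000029675, chromosome 5, 134731447 to 134776177, minus strand) had 21.4, 15.4 and 87.2 normalized counts with vehicle and 8.83, 15.2 and 44.9 with dicoumarol. With magnolol it had 5.82, 6.33 and 34.2, with the combination 6.08, 3.78 and 16.9, and with rosiglitazone 6.29, 4.35 and 18.5. Replicate 3 was the highest library in 5 of 5 groups, and every treated group overlapped vehicle. The log2 fold changes for dicoumarol, magnolol, the combination and rosiglitazone were −0.71, −1.40, −1.91 and −1.80 (SE 0.79, limma adjusted p = 1.00, 0.608, 0.211 and 0.0800), none of them called. With the replicate block, Eln was called with magnolol (limma adjusted p = 0.0188), the combination (0.000834) and rosiglitazone (0.000269), at the same fold changes. Without rosiglitazone replicate 3 it was also called for rosiglitazone (log2 −2.35, limma adjusted p = 0.0425).

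**Figure D2:**
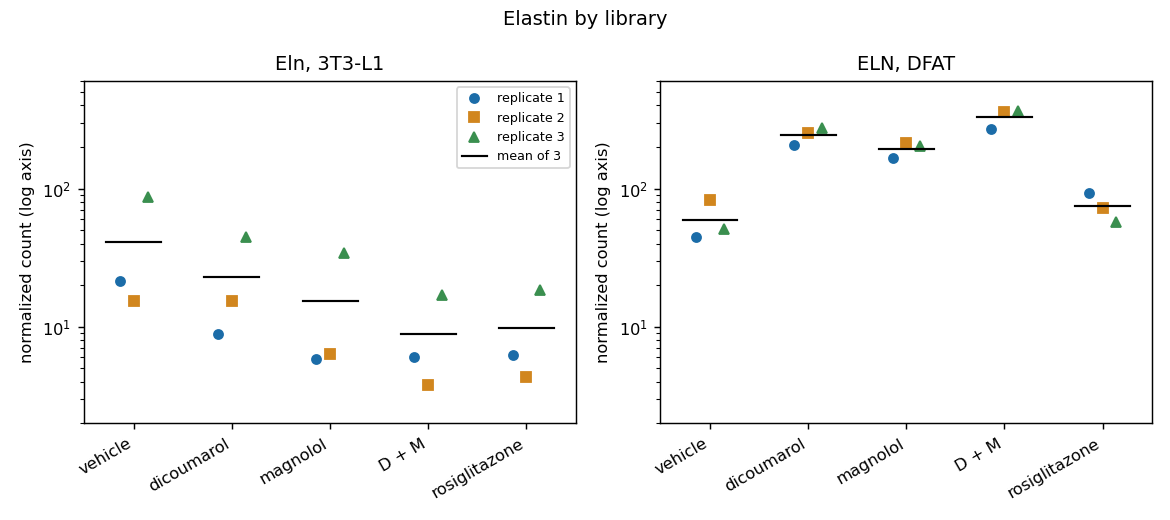
Normalized counts of elastin in each library (points, y axis logarithmic) by treatment (D + M, the combination), with 3T3-L1 in 1 panel and DFAT in the other, and the group mean as a line. DFAT libraries with dicoumarol, magnolol or the combination sit between 167 and 364, above the vehicle libraries at 44.8 to 83.1, whereas in 3T3-L1 replicate 3 stands above the others in every group.

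Fibrillin 1, the main microfibril protein and the source of the fat hormone asprosin, fell in 3T3-L1 with rosiglitazone. Fbn1 (ENSMUSG00000027204, chromosome 2, 125142514 to 125349913, minus strand) had 6880, 7440 and 4536 normalized counts with vehicle and 1703, 3491 and 2496 with rosiglitazone, with no overlap. Its level fell by 60.0% (log2 −1.32, SE 0.21, limma adjusted p = 0.000116). With the other treatments it lay between 4322 and 5640, and none was called. In DFAT, FBN1 (ENSSSCG00000004658, chromosome 1, 123102009 to 123359649, plus strand) was the most abundant member in counts, at 151857, 143492 and 158740 with vehicle and 150509, 156485 and 162719 with dicoumarol. With magnolol it had 182020, 164604 and 228836, and with the combination 176680, 169376 and 221126. Both groups lay above vehicle in all 3 libraries, yet neither the 0.33 nor the 0.31 log2 change was called (limma adjusted p = 0.143 and 0.107). With rosiglitazone the 3 libraries, 125180, 116495 and 133387, lay below vehicle (log2 −0.28, limma adjusted p = 0.168). With quantile normalization that difference was called (log2 −0.31, limma adjusted p = 0.00821). Replicate 3 was the highest FBN1 library in 5 of 5 DFAT groups. With the replicate block, FBN1 was called with magnolol (limma adjusted p = 0.0162), the combination (0.0131) and rosiglitazone (0.0258). Correlations of same-number libraries between these groups and vehicle did not all pass 0.1.

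Fibrillin 2, better known from development, was near 0. Fbn2 (ENSMUSG00000024598, chromosome 18, 58141695 to 58343559, minus strand) ran from 0 to 3.26 normalized counts in 3T3-L1. FBN2 (ENSSSCG00000014256, chromosome 2, 131150667 to 131370466, minus strand) had 0.975 in dicoumarol replicate 1, 1.00 and 1.83 in magnolol replicates 1 and 2, 1.28 in rosiglitazone replicate 1 and 0 in every other DFAT library. No fold change is given at that level.

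Microfibril-associated protein 5, which binds fibrillin, was low in 3T3-L1 and fell there with the combination and rosiglitazone. Mfap5 (ENSMUSG00000030116, chromosome 6, 122482804 to 122506249, plus strand) had 92.6, 92.4 and 73.2 normalized counts with vehicle. With the combination it had 42.6, 36.9 and 24.8, and with rosiglitazone 39.8, 33.7 and 23.5, all below every vehicle library. Dicoumarol (66.3, 107 and 66.3) straddled the vehicle values, while magnolol (37.8, 72.8 and 48.9) lay below them. Its log2 change under the combination was −1.31 (SE 0.29, limma adjusted p = 0.0135), and −1.41 with rosiglitazone (0.00106). For the combination Mfap5 was no longer called on leaving out vehicle replicate 1 (adjusted p = 0.0506, limma), vehicle replicate 2 (0.0522) or combination replicate 3 (0.0675). With the replicate block it was also lower with the combination than with dicoumarol (log2 −1.17, limma adjusted p = 0.00884; 0.150 without the block). In DFAT, MFAP5 (ENSSSCG00000031712, chromosome 5, 62742319 to 62757519, plus strand) ran from 545 to 940 over the 15 libraries, and no comparison was called.

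MFAP4, another microfibril-associated protein, was called in no comparison with vehicle. Mfap4 (ENSMUSG00000042436, chromosome 11, 61376257 to 61379726, plus strand) ran from 8.73 to 27.9 normalized counts in 3T3-L1. In DFAT, MFAP4 (ENSSSCG00000036007, chromosome 12, 60137566 to 60144207, plus strand) had 62.6, 113 and 87.6 with vehicle and 142, 124 and 124 with the combination. It had 122, 125 and 131 with dicoumarol, 82.3, 129 and 117 with magnolol, and 80.7, 119 and 64.2 with rosiglitazone. The combination lay above vehicle in 3 of 3 libraries (log2 0.60, limma adjusted p = 0.113), a difference called without vehicle replicate 2 (log2 0.80, limma adjusted p = 0.0468).

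Among the fibulins, fibulin 2 changed in both systems. Fbln2 (ENSMUSG00000064080, chromosome 6, 91189437 to 91249522, plus strand) had 25672, 26386 and 24977 normalized counts with vehicle and 9588, 15434 and 12478 with rosiglitazone. It fell by 52.2% (log2 −1.07, SE 0.13, limma adjusted p = 1.83e-05), with no overlap. With the combination (18319, 20830 and 19590) all libraries also lay below vehicle, and the −0.39 was called only with the replicate block (limma adjusted p = 0.117, and 0.0285 with the block). FBLN2 (ENSSSCG00000011609, chromosome 13, 70757265 to 70830388, minus strand) had 5816, 4982 and 4398 with vehicle and 10503, 7969 and 8224 with dicoumarol. It rose by 75.4% (log2 0.81, SE 0.14, limma adjusted p = 0.00411). Magnolol (8008, 5589 and 6130) and rosiglitazone (4551, 3559 and 3680) overlapped vehicle, whereas the combination (7939, 6126 and 6647) lay above it. The combination's 0.45 was not called (limma adjusted p = 0.0568), but was without vehicle replicate 1 (0.0417) or combination replicate 2 (0.0494) and with only these 2 groups fitted (0.0168). Replicate 1 was the highest library for FBLN2 in 5 of 5 DFAT groups. With the replicate block, FBLN2 was called higher with magnolol (log2 0.37, limma adjusted p = 0.000343) and the combination (0.45, 2.43e-05). It was called lower with rosiglitazone (log2 −0.37, limma adjusted p = 0.000167). Between these groups and vehicle, the correlations of same-number libraries did not all pass 0.1.

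Fibulin 5, which binds tropoelastin and helps its assembly on microfibrils, fell in 3T3-L1 with rosiglitazone and rose in DFAT with the combination. Fbln5 (ENSMUSG00000021186, chromosome 12, 101712824 to 101785314, minus strand) had 3068, 2691 and 2009 normalized counts with vehicle and 1400, 1719 and 1445 with rosiglitazone, a log2 change of −0.75 (SE 0.17, limma adjusted p = 0.00229). With the combination it had 1946, 2201 and 1546 (log2 −0.44, limma adjusted p = 0.170, and 0.00773 with the replicate block), overlapping vehicle. FBLN5 (ENSSSCG00000002444, chromosome 7, 113423632 to 113512198, minus strand) had 2540, 2676 and 2689 with vehicle. The combination libraries, at 3170, 3437 and 4318, all lay above these (log2 0.45, SE 0.11, limma adjusted p = 0.0112). Leaving out vehicle replicate 1 (adjusted p = 0.0513, limma) or combination replicate 3 (0.0656) ended the call. Dicoumarol, at 3284, 3202 and 3501, also lay above vehicle throughout (log2 0.34, limma adjusted p = 0.167, and 0.00558 when only these 2 groups were fitted). Magnolol (2560, 2957 and 3495) and rosiglitazone (2494, 2586 and 2909) overlapped vehicle.

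Fibulin 4, encoded by Efemp2, recruits lysyl oxidase to elastin. Efemp2 (ENSMUSG00000024909, chromosome 19, 5523982 to 5532545, plus strand) had 7739, 6718 and 7474 normalized counts with vehicle and 4545, 5232 and 4752 with rosiglitazone in 3T3-L1. It fell by 33.7% (log2 −0.59, SE 0.09, limma adjusted p = 7.82e-05), with no overlap. Dicoumarol (7035, 7120 and 7396) overlapped vehicle. With magnolol (6579, 6268 and 5825) and the combination (5691, 6661 and 5920) all libraries lay below vehicle. Neither was called (limma adjusted p = 0.342 and 0.105), and the combination was with the replicate block (0.0434). EFEMP2 (ENSSSCG00000012971, chromosome 2, 6450332 to 6463486, plus strand) ran from 2529 to 3786 in DFAT, and no comparison with vehicle was called.

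Lysyl oxidase, the crosslinking enzyme, fell most of the members called in 3T3-L1 with rosiglitazone. Lox (ENSMUSG00000024529, chromosome 18, 52649139 to 52662939, minus strand) had 83291, 122244 and 88877 normalized counts with vehicle and 17075, 32130 and 35620 with rosiglitazone, with no overlap. It fell by 72.2% (log2 −1.84, SE 0.24, limma adjusted p = 2.71e-05). Its share of all counts ran from 0.0601% to 0.465% over the 15 libraries. Dicoumarol (68374, 89798 and 90426) and magnolol (59756, 80484 and 83830) overlapped vehicle. The combination (52732, 63798 and 76736) lay below vehicle throughout (log2 −0.60, limma adjusted p = 0.199, and 0.0100 with the replicate block). In DFAT, LOX (ENSSSCG00000014232, chromosome 2, 125591789 to 125607594, minus strand) had 28724, 25560 and 28722 with vehicle and 22331, 23160 and 23251 with rosiglitazone. This was a fall of 17.1% (log2 −0.27, SE 0.07, limma adjusted p = 0.0174). The call ended on leaving out vehicle replicate 1 (adjusted p = 0.0810, limma), vehicle replicate 3 (0.0621) or rosiglitazone replicate 1 (0.0559), but not any of the other 3 libraries. It also ended in a fit of only these 2 groups (0.0691).

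Loxl1, a lysyl oxidase relative needed to maintain elastic fibres, moved against the other called members in 3T3-L1. Loxl1 (ENSMUSG00000032334, chromosome 9, 58195021 to 58220469, minus strand) had 9330, 8485 and 9750 normalized counts with vehicle and 10425, 11485 and 11103 with rosiglitazone. Dicoumarol (9702, 10533 and 10572), magnolol (9781, 10134 and 9211) and the combination (10082, 10981 and 8947) overlapped vehicle. With rosiglitazone it rose by 19.9% (log2 0.26, SE 0.09, limma adjusted p = 0.0306). It was not called on leaving out vehicle replicate 1 (adjusted p = 0.0543, limma), vehicle replicate 2 (0.120), rosiglitazone replicate 2 (0.0764) or rosiglitazone replicate 3 (0.0733), with only these 2 groups fitted (0.118) and with no filter on low genes (0.0528). In DFAT, LOXL1 (ENSSSCG00000001914, chromosome 7, 59481412 to 59505149, minus strand) went the other way, from 1055, 1252 and 1178 with vehicle to 906, 853 and 838 with rosiglitazone. It fell by 25.3% (log2 −0.42, SE 0.08, limma adjusted p = 0.00138), with no overlap.

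**Figure D3:**
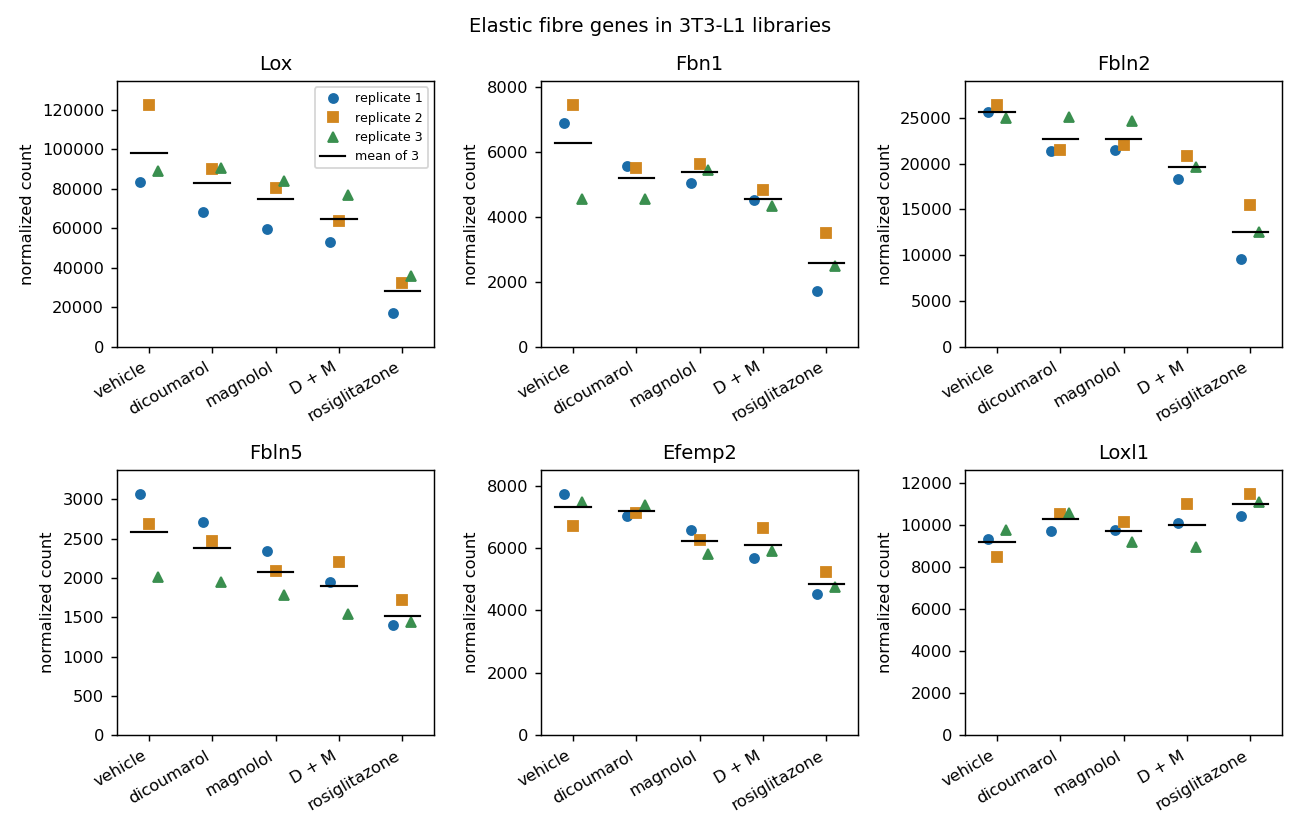
Normalized counts of 6 members in each 3T3-L1 library (points) by treatment, 1 panel per gene, with D + M for the combination and the group mean as a line. Lox, Fbn1, Fbln2 and Efemp2 libraries with rosiglitazone sit below all vehicle libraries, while Loxl1 sits above them.

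**Figure D4:**
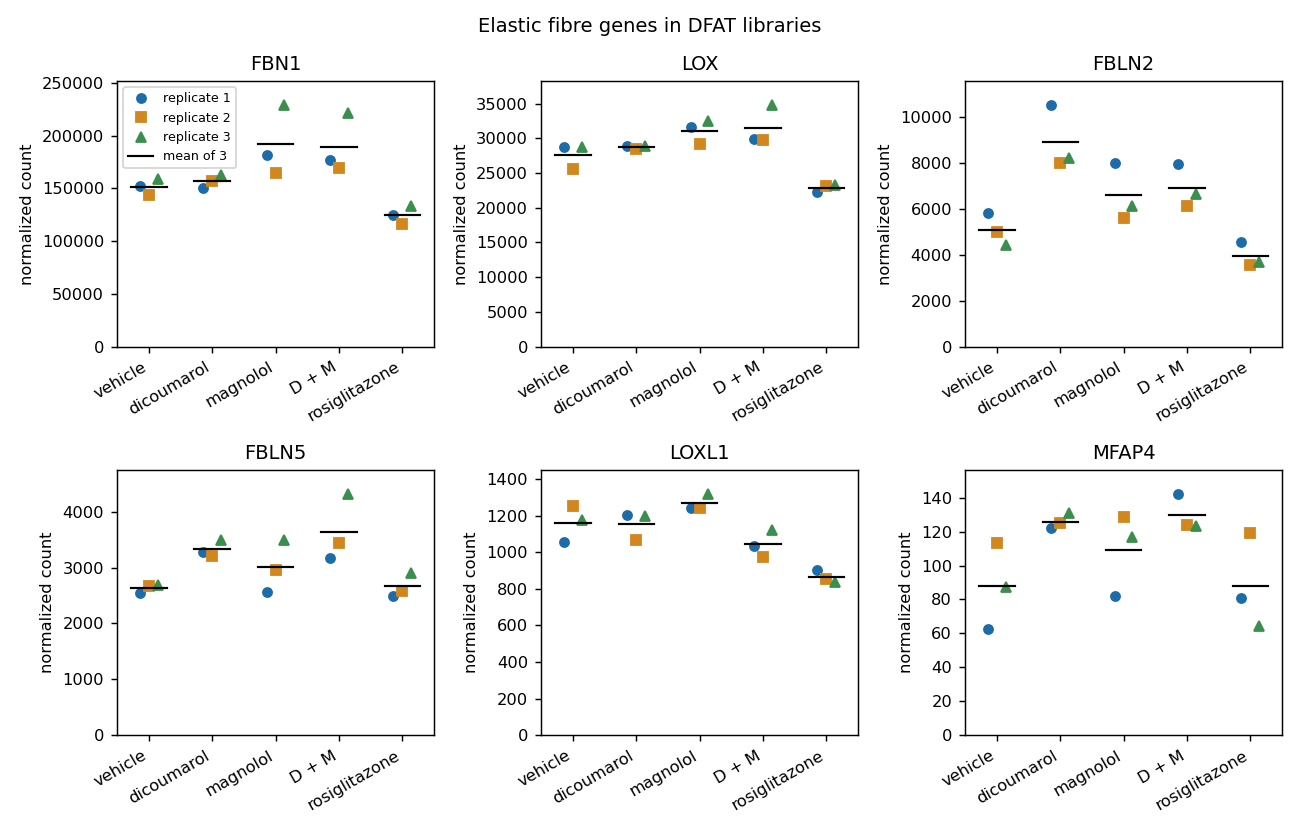
Normalized counts of 6 members in each DFAT library (points) by treatment, 1 panel per gene, with D + M for the combination and the group mean as a line. FBLN2 is highest with dicoumarol (7969 to 10503), and LOX and LOXL1 are lowest with rosiglitazone.

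Against the single compounds, no member was called for the combination in the fit without a block. In 3T3-L1 it gave 0 of 9 against dicoumarol (limma; 2 at an unadjusted p under 0.05; 0.0254% of all genes called) and 0 of 9 against magnolol (limma; 0 at an unadjusted p under 0.05; 0% of all genes). In DFAT it gave 0 of 9 against dicoumarol (limma; 2 at an unadjusted p under 0.05; 2.35% of all genes) and 0 of 9 against magnolol (limma; 3 at an unadjusted p under 0.05; 0.621% of all genes). With the replicate block, 3T3-L1 gave 1 member against dicoumarol, Mfap5 (log2 −1.17, limma adjusted p = 0.00884; 3.62% of all genes), and 0 against magnolol (0% of all genes). The DFAT numbers pair the magnolol and combination libraries, and with the block FBLN5 was higher with the combination (log2 0.28, limma adjusted p = 0.0478; 1.96% of all genes).

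Rosiglitazone against the combination lowered members in both systems. In 3T3-L1 it lowered 4 of 9, where 18.3% of all genes were called and 8.78% of all genes were lower. The 4 were Lox (log2 −1.24, limma adjusted p = 0.00415), Fbn1 (−0.89, 0.00929), Fbln2 (−0.67, 0.00447) and Efemp2 (−0.33, 0.0184). The replicate block added Fbln5 (limma adjusted p = 0.0283), for 5 of 9 against 33.3% of all genes. The Efemp2 call was lost without combination replicate 2 (limma adjusted p = 0.0816), rosiglitazone replicate 1 (0.0820) or replicate 3 (0.0529), and with only these 2 groups fitted (0.0728). In DFAT it lowered 7 of 9, where 17% of all genes were called and 8.79% of all genes were lower. ELN was lower by 2.16 on the log2 scale (limma adjusted p = 2.92e-06), FBLN2 by 0.81 (0.000667), FBN1 by 0.59 (0.00196) and LOX by 0.45 (0.000197). FBLN5 (log2 −0.44, limma adjusted p = 0.00899), EFEMP2 (−0.35, 0.0136) and LOXL1 (−0.27, 0.0250) made up the rest. Each of these 3 calls was lost when single libraries were left out: FBLN5 without combination replicate 3 (limma adjusted p = 0.0532), EFEMP2 without combination replicate 1 (0.0622) or 2 (0.0668) or rosiglitazone replicate 3 (0.0624), and LOXL1 without combination replicate 1 (0.0607) or 3 (0.111) or rosiglitazone replicate 2 (0.0559) or 3 (0.0807). With only these 2 groups fitted, EFEMP2 (0.0525) and LOXL1 (0.0928) were not called. MFAP4 was called with the replicate block (log2 −0.60, limma adjusted p = 0.0355; 8 of 9 members against 24.9% of all genes) and not without it (0.0829), and also without rosiglitazone replicate 2 (0.0167).

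The difference between the systems was tested directly as the DFAT log2 fold change minus that of 3T3-L1, in 9369 genes matched by symbol. For dicoumarol, 0 of 9 members differed (limma; 4 at an unadjusted p under 0.05), against 0.0854% of all genes. For magnolol 1 of 9 differed, ELN, against 3.28%. For the combination 5 of 9 differed, ELN, FBLN2, FBLN5, EFEMP2 and MFAP5, against 11.6%, and for rosiglitazone 7 of 9, all but ELN and MFAP4, against 38.7%. In each of these 13 except LOXL1 the DFAT fold change was the higher one. For ELN the difference was 4.40 under the combination (SE 0.87, limma adjusted p = 0.00120), and 3.14 with magnolol (0.0420). The magnolol call was lost without 3T3-L1 vehicle replicate 3 (log2 2.40, limma adjusted p = 0.140), and also without 3T3-L1 magnolol replicate 1 (0.141) or 2 (0.0954), DFAT vehicle replicate 1 (0.113) or 3 (0.0921), or DFAT magnolol replicate 1 (0.0731), 2 (0.0867) or 3 (0.0968). LOX differed by 1.57 with rosiglitazone (SE 0.27, limma adjusted p = 4.31e-05) and LOXL1 by −0.68 (3.6e-05). The EFEMP2 call with the combination (0.43, limma adjusted p = 0.0267) was lost without 3T3-L1 vehicle replicate 1 (0.0646) or 3 (0.0560), 3T3-L1 combination replicate 1 (0.0844) or 3 (0.0562), DFAT vehicle replicate 3 (0.0735), or DFAT combination replicate 1 (0.0743) or 2 (0.0805). The fit above had no replicate block. With the block, ELN (2.77) and FBLN2 (1.00) also differed for dicoumarol (limma adjusted p = 5.18e-05 for both; 2.09% of all genes called). The block gave 6 members for magnolol (10.9%), 7 for the combination (23.0%) and 8 for rosiglitazone (50.4%). Between the DFAT treatments and vehicle, the correlations of same-number libraries did not all pass 0.1, the threshold set for pairing. Their medians were 0.0948 for dicoumarol, 0.0769 for magnolol, 0.122 for the combination and 0.0162 for rosiglitazone. Libraries of other numbers had medians of −0.0882, −0.0801, −0.0586 and 0.134. Species, induction mix and serum differ between the systems along with the cells, and their parts cannot be told apart.

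**Figure D5:**
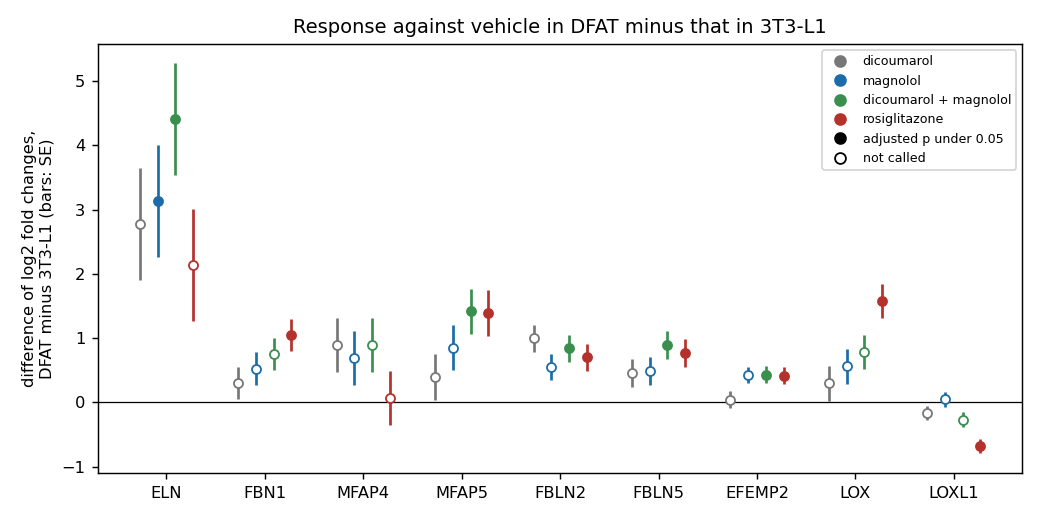
Difference of log2 fold changes, DFAT minus 3T3-L1, (y axis, log2) for the 9 tested members (x axis) and each treatment (colours), with bars of 1 SE and filled points for called differences. All called differences lie above 0 except LOXL1 with rosiglitazone at −0.68.

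Compared per kilobase of exon (GENCODE vM21 exon lengths, mouse only), lysyl oxidase was the most abundant member in 3T3-L1 vehicle libraries. The level was 20539 ± 4408 normalized counts per kilobase (SD, n = 3) for Lox, 4031 ± 111 for Fbln2, 2787 ± 195 for Loxl1 and 1930 ± 140 for Efemp2. Fbn1 had 518 ± 127 and Fbln5 375 ± 77.7, levels whose ranges overlapped. Mfap5 had 24.0 ± 3.11, Mfap4 10.1 ± 3.81, Eln 5.10 ± 4.92 and Fbn2 0.132 ± 0.115, and those of Mfap4 and Eln overlapped. Both crosslinking enzymes and fibulins 2 and 4 stood far above elastin itself.

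Across the 15 libraries of a system, members differed in how alike their levels ran. The libraries share the treatment differences and a table, so the correlations are descriptions. In 3T3-L1, Fbln2 and Lox had a Pearson r of 0.95, Fbn1 and Fbln2 0.94, and Fbn1 and Lox 0.91, whereas Lox and Loxl1 had −0.58. In DFAT, FBN1 and LOX had 0.93, ELN and FBLN5 0.79 and ELN and MFAP4 0.77. Among genes with a mean of at least 100, the 3 most like Lox in 3T3-L1 were Cdh2, Rbms3 and Dlg1, all at 0.99. The 3 most like LOX in DFAT were RBMS3 (0.97), ROBO1 (0.96) and CDH11 (0.96). Eln in 3T3-L1 was most like P3h3 (0.94), Cd81 (0.93) and Snhg18 (0.92), and ELN in DFAT most like CPXM2 (0.96), MYORG (0.95) and GPRC5C (0.94).

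Other genes of the pathway, in lists of microfibril proteins, fibulins, crosslinking enzymes and elastin receptors and elastases were counted by direction, beside the shares of all genes called in that direction. In 3T3-L1 rosiglitazone raised 20.3% and lowered 19.9% of all genes, the combination 3.86% and 1.36%, magnolol 1.07% and 0.153% and dicoumarol 0% and 0%. In DFAT rosiglitazone raised 5.8% and lowered 5.02%, the combination 6.11% and 4.06%, magnolol 2.96% and 1.27% and dicoumarol 0.911% and 1.03%. Of 14 tested microfibril and latent TGFβ binding protein genes in 3T3-L1, rosiglitazone raised 1 (20.3% of all genes) and lowered 6 (19.9%). The combination lowered 2 (1.36% of all genes), and dicoumarol and magnolol changed 0. In DFAT, of 13 tested, dicoumarol raised 3 (0.911% of all genes), magnolol 6 (2.96%) and the combination 6 (6.11%). Rosiglitazone there raised 1 (5.8% of all genes) and lowered 4 (5.02%). EMILIN1, an elastic fibre glycoprotein, rose with the combination from 5040 to 9206 mean normalized counts (log2 0.88, limma adjusted p = 3.11e-05). LTBP2, a fibrillin-binding protein, rose with dicoumarol from 117616 to 163916 (log2 0.48, limma adjusted p = 0.00573). ADAMTS6, a secreted protease, rose with magnolol (log2 0.95, limma adjusted p = 0.00725). With rosiglitazone ADAMTSL4, a fibrillin-binding protein, rose in DFAT (log2 0.54, limma adjusted p = 0.00241) and ADAMTSL5 of the same family fell (−0.44, 0.00722). In 3T3-L1 Adamtsl5 fell with the combination (log2 −0.54, limma adjusted p = 0.0187) and rosiglitazone (−1.15, 5.01e-06), and Adamtsl2 rose with rosiglitazone from 5.57 to 21.8 mean normalized counts (1.90, 0.00864).

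Of 15 tested crosslinking and processing genes in 3T3-L1, rosiglitazone lowered 8 (19.9% of all genes) and raised 0 (20.3%), and the other treatments changed 0. In DFAT, of 16 tested, dicoumarol raised 2 (0.911% of all genes), magnolol 3 (2.96%) and the combination 6 (6.11%). Rosiglitazone raised 1 (5.8% of all genes) and lowered 2 (5.02%). LOXL4, a further lysyl oxidase relative, rose in DFAT from 309 mean normalized counts to 649 with magnolol (log2 1.07, limma adjusted p = 1.11e-06), 737 with the combination (1.26, 6.15e-08) and 562 with rosiglitazone (0.86, 4.59e-06). LOXL3 rose with dicoumarol (log2 0.45, limma adjusted p = 0.00410), and PCOLCE, an enhancer of procollagen processing, fell with rosiglitazone (−0.47, 0.0361). Tll1, a protease of the family that activates lysyl oxidase, fell in 3T3-L1 with rosiglitazone from 84.8 to 24.7 (log2 −1.78, limma adjusted p = 0.000245).

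The list of elastin receptors and elastases also held the protease inhibitors Timp3 and Serpine2. Of its tested genes, 11 of 11 fell in 3T3-L1 with rosiglitazone, where 19.9% of all genes fell. Timp3, an inhibitor of metalloproteinases, was lowest at −2.46 on the log2 scale (limma adjusted p = 0.00244). The combination lowered 3 of these 11 (1.36% of all genes), among them Mmp9, a gelatinase that also cuts elastin (log2 −1.58, limma adjusted p = 0.0122), magnolol 1 (Serpine2, −0.57, 0.0285; 0.153% of all genes) and dicoumarol 0. In DFAT, dicoumarol raised 1 of 11 (0.911% of all genes), magnolol 4 (2.96%) and the combination 4 (6.11%), with 1 lower (4.06%). Rosiglitazone raised 2 (5.8% of all genes) and lowered 5 (5.02%). ITGB3, an integrin subunit, rose with dicoumarol, magnolol and the combination, by 0.86, 1.10 and 1.38 on the log2 scale (limma adjusted p = 0.00870, 0.000605 and 2.42e-05). CTSS, an elastin-cutting cathepsin, fell with the combination (log2 −0.61, limma adjusted p = 0.0133). With rosiglitazone SERPINE2, a protease inhibitor, rose by 0.95 on the log2 scale (limma adjusted p = 6.5e-06) and MMP2, a gelatinase, fell by 0.45 (0.00382). Of 3 tested other fibulins, rosiglitazone lowered 2 in 3T3-L1 (19.9% of all genes) and 3 in DFAT (5.02%). Magnolol raised 2 (2.96% of all genes) and the combination 1 (6.11%) in DFAT, and the other treatments changed 0 in either system. FBLN7 rose in DFAT with magnolol (log2 0.48, limma adjusted p = 0.00367) and fell with rosiglitazone (−0.68, 4.62e-05). HMCN1 rose there with the combination (log2 0.65, limma adjusted p = 0.000672), and Fbln7 fell in 3T3-L1 with rosiglitazone (−1.39, 0.000418).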

How the data were processed

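Poly(A) RNA of 30 libraries was sequenced in 2 systems, with a strand-marking kit per the labels' protocols. The authors deposited 1 table per system, whose signal values are counts per gene divided by a DESeq2 size factor of the library. STAR, DESeq2, bcl2fastq 2.19.1.403 and the build GRCm38 are listed in the submitters' processing notes for mouse and pig samples alike. Only 2.18% of 24070 matched mouse genes had the same start as in GENCODE vM21 (GRCm38), while 95.5% had the same length. Most mouse starts thus differ from that build, and the build of the coordinates is not settled. They are given as deposited, with the listed stop less 1 as the end. The members were matched by symbol. The members, the lists and the named genes were chosen with earlier results of these data known. Named genes were the members and, per list and comparison with vehicle, the called gene with the largest rise and the largest fall. For Eln and Lox the 3 genes of highest Pearson r were named.

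Genes with a mean of at least 10 were tested with limma 3.58.1 (R 4.3.3), on log2 of the value plus 1, with 5 group means in 1 model over 15 libraries, a variance trend and two-sided tests, adjusted by Benjamini-Hochberg over 15723 and 14819 genes. The difference between systems was fitted over all 30 libraries, with each fold change formed within its own table. Up to 20 reads, 81.4% to 82.8% of low values in 3T3-L1 and 90.3% to 91.3% in DFAT were whole within 0.02, so reads were not recovered for a count test; size factors were 0.810 to 1.17 and 0.780 to 1.18. The fit was tested on simulated data. Libraries with the same replicate number deviated together (every correlation above 0.1) in all 7 comparisons of 3T3-L1, the lowest being 0.141, and in DFAT only between the combination and magnolol (lowest 0.118) and the combination and rosiglitazone (lowest 0.105), from the labels' numbers, whose meaning is not given. Alternatives were a pseudocount of 5, no filter, quantile normalization, no variance trend, only the groups compared, a replicate block and each library left out. Tables and plots were made in Python 3.11.15 (pandas 2.3.3, numpy 2.4.6, matplotlib 3.10.9).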

Additional observations from a re-analysis of the deposited data

Results flagged for a closer look

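The treatment effect on 13 member and treatment pairs differed between DFAT and 3T3-L1 cells by the test of the difference itself (limma over 30 libraries and 9369 matched genes). Of all matched genes, 38.7% differed under rosiglitazone, 11.6% under the combination and 3.28% under magnolol. Each value is the DFAT log2 fold change against vehicle minus that of 3T3-L1. With magnolol the difference was 3.14 for ELN. With the combination it was 4.40 for ELN, 0.84 for FBLN2, 0.90 for FBLN5, 0.43 for EFEMP2 and 1.42 for MFAP5. With rosiglitazone it was 1.05 for FBN1, 0.70 for FBLN2, 0.76 for FBLN5, 0.41 for EFEMP2, 1.39 for MFAP5, 1.57 for LOX and −0.68 for LOXL1. These pairs share the vehicle libraries within a system, and species, induction mix and serum cannot be told apart from the cells. The magnolol call for ELN and the combination call for EFEMP2 were each lost when certain single libraries were left out, as given above. The ELN call was also lost in the fit with no variance trend (limma adjusted p = 0.0591).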

How the results depend on the processing

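No called member value changed sign under any alternative run, though 62 uncalled member values did when a library was left out and 5 with quantile normalization. A pseudocount of 5 changed no member's call. The count test planned for recovered reads was not run, since the reads were not recovered. With the replicate block, the members called in 3T3-L1 were 1 for magnolol (4.96% of all genes called) and 6 for the combination (13.5%). For the combination against dicoumarol it was 1 (3.62%). In DFAT the numbers passed the pairing threshold in only some comparisons. There the block gave 3 for dicoumarol, adding FBLN5 (4.52% of all genes called), and 3 for magnolol, adding FBN1 and FBLN2 (9.18%). It gave 6 for the combination, adding FBN1, FBLN2, MFAP4 and LOX (17.8%). It gave 5 for rosiglitazone, adding FBN1, FBLN2 and EFEMP2 (16.0%), 1 for the combination against dicoumarol, FBLN2 (log2 −0.36; 6.03%), and 1 against magnolol (1.96%). Under it FBLN2 had a limma adjusted p of 0.000343 for magnolol, 2.43e-05 for the combination, 0.000167 for rosiglitazone and 0.000601 for the combination against dicoumarol. For the differences between systems it gave 2 for dicoumarol, ELN and FBLN2 (both 5.18e-05; 2.09% of all genes), and 6 for magnolol, adding FBLN2, FBLN5, EFEMP2, MFAP5 and LOX (10.9%). It gave 7 for the combination, adding FBN1 and LOX (23.0%), and 8 for rosiglitazone, adding ELN (2.45e-05; 50.4%). It made 32 member values called and lost 0. Fitting only the groups compared left 1 member for DFAT rosiglitazone. Of the differences, quantile normalization gave 1 for dicoumarol and the fit with no variance trend 0 for magnolol. The cause was not tested.

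Leaving out 1 library gave 0 to 1 members for the 3T3-L1 combination, 6 to 7 for 3T3-L1 rosiglitazone and 3 to 4 for 3T3-L1 rosiglitazone against the combination. In DFAT it gave 1 to 3 for the combination, 1 to 2 for rosiglitazone and 5 to 7 for rosiglitazone against the combination. For the differences it gave 4 to 6 for the combination, 0 to 1 for dicoumarol, 0 to 2 for magnolol and 7 to 8 for rosiglitazone. These alternatives for the differences were chosen after seeing the data. Differences not called became called as follows (limma adjusted p): ELN with rosiglitazone (0.0533) without 3T3-L1 vehicle replicate 1 (0.0437) or 2 (0.0259), 3T3-L1 rosiglitazone replicate 3 (0.0185) or DFAT vehicle replicate 2 (0.0472); FBLN2 with dicoumarol (0.0522) without 3T3-L1 dicoumarol replicate 3 (0.0432) or DFAT vehicle replicate 1 (0.0402). LOX with the combination (0.0541) was called without 3T3-L1 vehicle replicate 1 (0.0374) or combination replicate 3 (0.0317), and FBN1 (0.0524) without 3T3-L1 vehicle replicate 3 (0.00888) or DFAT combination replicate 2 (0.04995). LOXL1 with the combination was called without 3T3-L1 combination replicate 3 (0.0485), and EFEMP2 with magnolol without 3T3-L1 vehicle replicate 2 (0.0463) or DFAT magnolol replicate 3 (0.0254).

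Over all genes, the block raised the calls in 3T3-L1 from 0 to 79 for dicoumarol, 193 to 780 for magnolol, 821 to 2124 for the combination, 4 to 569 for the combination against dicoumarol and 2879 to 5234 for rosiglitazone against the combination, and from 6312 to 7827 for rosiglitazone. In DFAT it gave 670 for dicoumarol (288 without it), 1360 for magnolol (626), 2643 for the combination (1508) and 2368 for rosiglitazone (1604), and for the combination 893 against dicoumarol and 290 against magnolol (348 and 92). In 3T3-L1, magnolol gave 80 with no variance trend and 106 with only the groups compared. The DFAT values for magnolol were 505 and 560. Having 3 libraries a group limits the precision. Low members such as Eln and Mfap4 in 3T3-L1 carry the widest errors, with SE of 0.79 and 0.35 on the log2 scale.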
